A study of Solanum pimpinellifolium with 60 samples.

Results

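The 150 tomato genes described here were those whose level in wild-type floral buds at 4 days post floral initiation (dpi) stood highest above every other stage sampled. They were selected on the 15 wild-type libraries alone. Counts were scaled to RPM (reads per 1e+06 counts of the library), averaged over the 3 libraries of a stage, and the 11995 of 34725 genes with a 4 dpi mean of at least 10 RPM were ranked by the ratio of the 4 dpi mean to the highest mean of another stage, with 1 RPM added to both. Because the wild-type values chose the genes, those values are a description without a test, and tests were run only in the 45 libraries of the near-isogenic lines (NILs), which the selection did not use.

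The libraries came from 3′ Tag RNA-seq, in which reads come from the 3′ end of an mRNA alone, so counts were not divided by gene length, and covered greenhouse-grown NILs and their wild type, with 3 replicates in each of 20 groups. The lc NIL carries nucleotide changes downstream of SlWUS, the fas NIL carries an inversion with a breakpoint in the promoter of SlCLV3, and the lc/fas NIL carries both. All 3 NILs came from backcrosses to the wild species Solanum pimpinellifolium, accession LA1589, and keep introgressed segments around the mutant loci on chromosomes 2 and 11. The wild type sampled here was derived from the same backcross population. Each line was sampled as the sympodial shoot meristem (SYM), as the meristems of flower and inflorescence together (F&IM), and as buds aged 2, 4 and 6 dpi, each library from pooled, hand-dissected tissue. Library totals lay between 0.441 and 9.17, in units of 1e+06 counts, with a median of 4.71, and the smallest was fas at 6 dpi, replicate 3. In bulk tissue of this kind, fewer cells of a type and less RNA per cell cannot be told apart.

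In a tomato flower the sepals, petals, stamens and carpels start in turn from the outside inwards, and the floral meristem is used up as the carpels form. While the young organs grow out, their epidermis begins to shape its cells, to lay down cuticle and to form trichomes, steps that in Arabidopsis involve MIXTA-type MYB factors. In the Solanaceae, protease inhibitors and small cysteine-rich proteins are well known from flowers and are mostly described as defence proteins. Genes of meristems and floral organs were looked up, and all 7 markers searched were detected in wild-type buds of 4 dpi. All 7 were also detected in every wild-type library of the other stages, so detection alone does not check the stage label. TAG1, the AGAMOUS-type factor of stamens and carpels, averaged 70.3 RPM at 4 dpi, against 2.43 RPM at 2 dpi, and the homolog of PISTILLATA, a factor of petals and stamens, averaged 577 RPM at 4 dpi, against 6.73 RPM at 2 dpi. Both were higher still at 6 dpi, at 140.2 and 888 RPM, so neither belongs to the 150 genes. The meristem genes SlWUS, SlCLV3 and STM averaged 5.30, 4.70 and 151 RPM in wild-type buds of 4 dpi. The other 2 markers, TM5 and SlYABBY2b, averaged 460 and 48.4 RPM there.

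Most of the 150 genes had only a shallow maximum at 4 dpi in the wild type. The ratio to the next stage was 5.55 for the first gene and 1.26 at the median, 6 genes reached 2 and 24 reached 1.5. The next-highest stage was 6 dpi for 89 genes, 2 dpi for 45, the F&IM for 11 and the SYM for 5, so that the set as a whole was a set of bud genes with a crest between 2 and 6 dpi. For 40 genes all 3 wild-type libraries of 4 dpi lay above the 12 libraries of the other stages. These libraries chose the genes, so this count is partly set by the selection, and its share over all genes was not calculated. The last genes inside the threshold were Solyc07g061730 and Solyc11g028060, both with a ratio of 1.191, and Solyc01g067130 with 1.190. The first outside it were Solyc06g072310 and Solyc07g049430, both with 1.189, and Solyc07g052480 with 1.188. Wild-type means at 4 dpi ran from 10.4 to 67405 RPM with a median of 36.3 RPM, and each gene had at least 11 counts in every wild-type library of 4 dpi. All 150 also passed the filter on low counts in the NIL libraries.

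The study's supplementary tables pair 60 of the 150 genes with an Arabidopsis homolog, and the other 90 are named here by identifier only. The homologs include 11 transcription factors and repressors, 13 enzymes, 5 inhibitors or small secreted proteins, 5 transporters and 6 signalling proteins. These groups were drawn up after the values had been seen, and their counts of calls are a description. The pairs come from lists that the study assembled on these same libraries, so the share of a kind of protein among them is no measure of its share among the 150 genes. Product text was at hand for 7 genes only, of which a transcription factor list, a hormone list, a protease and inhibitor list, a transporter list and a signalling list held 1 each, and lists for cell wall, lipid and wax, cytochrome P450, phenylpropanoid, cell cycle and stress proteins held 0.

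The 4 dpi crest was also present in the NILs. The highest of the 5 stage means fell at 4 dpi for 123 genes in lc, 99 in fas and 119 in the lc/fas line, against 12.7%, 13.3% and 11.4% of all 18712 genes tested. It did so in all 3 NILs for 84 genes, in 2 NILs for 36, in 1 NIL for 17 and in 0 NILs for 13. For these counts by number of NILs the share of all genes was not calculated. Where another stage was highest it was mostly 6 dpi, with 19 genes in lc, 43 in fas and 17 in the lc/fas line. The median of the gene means, in the order SYM, F&IM, 2, 4 and 6 dpi, was 15.3, 13.1, 20.5, 31.8 and 23.8 RPM in lc. It was 15, 13.3, 20.4, 28.3 and 24.1 RPM in fas, and 16.0, 15.1, 22.4, 32.8 and 22.1 RPM in lc/fas. In the wild type, which chose the genes, it was 12.4, 13.4, 19.4, 36.3 and 22.2 RPM. The median ratio of 4 dpi to the next-highest stage was 1.15 in lc, 1.09 in fas and 1.14 in the lc/fas line. Genes whose 3 libraries of 4 dpi all lay above the other 12 libraries of the line numbered 31 in lc, 19 in fas and 28 in the lc/fas line, against 0.513%, 0.513% and 0.363% of all genes tested.

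**Figure D1:**
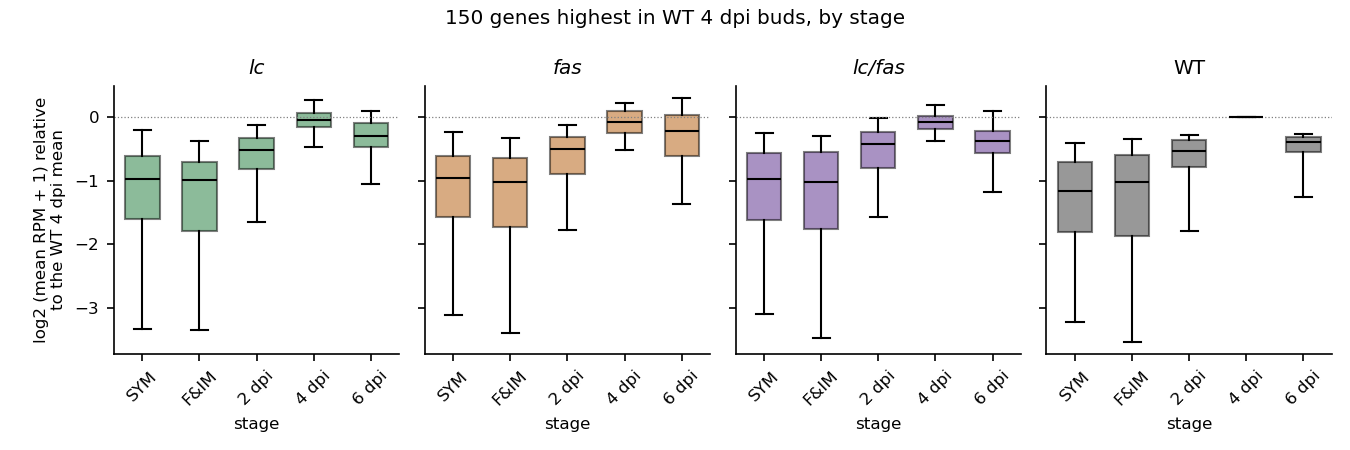
Level of the 150 genes by stage in each NIL and in the wild type (WT), as log2 of the mean RPM plus 1 relative to the WT mean at 4 dpi. Boxes give the quartiles with the median as a line and whiskers the 5th and 95th percentiles over genes; in each NIL the median is highest at 4 dpi and the meristem stages (SYM, F&IM) have the lowest medians, while the WT box at 4 dpi is 0 by construction.

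The step between 2 and 4 dpi was the larger one. With edgeR's quasi-likelihood test and Benjamini-Hochberg adjustment over all genes, and an adjusted p below 0.1 as the threshold, 62 of the 150 genes were higher at 4 dpi than at 2 dpi in lc, 59 in fas and 43 in the lc/fas line, against 8.45%, 8.25% and 7.93% of all genes tested. None of the 150 was called lower in any NIL. The median log2 fold change, 4 dpi over 2 dpi, was 0.54 in lc, 0.48 in fas and 0.35 in the lc/fas line, against -0.02, -0.02 and -0.04 over all genes. Of the 150 genes, 32 passed in all 3 NILs, 25 in 2, 18 in 1 and 75 in 0. The shares of all genes tested that passed in that many NILs were not calculated. The count in lc was 35 without the 5 libraries of lc replicate 1 and 27 without those of lc replicate 2, and that of fas was 39 when fas replicate 2 was left out and 32 when fas replicate 3 was.

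The step between 6 and 4 dpi was smaller. At the same threshold 15 genes were higher at 4 dpi than at 6 dpi in lc, 24 in fas and 22 in the lc/fas line, against 0.892%, 3.25% and 1.37% of all genes tested, and again 0 of the 150 were called lower. The median log2 fold change, 4 dpi over 6 dpi, was 0.24 in lc, 0.17 in fas and 0.24 in the lc/fas line, against 0.01, 0.03 and -0.03 over all genes. The call held in all 3 NILs for 10 genes, in 2 for 6, in 1 for 19 and in 0 for 115, and the matching shares of all genes were not calculated. In lc/fas, where equally numbered libraries of 4 and 6 dpi deviated together, a fit with the replicate as a block called 35 genes. The count depended on single replicates, with 3, 7 and 4 genes in lc without lc replicate 1, 2 or 3, and 2, 12 and 9 in fas without fas replicate 1, 2 or 3. Without lc/fas replicate 1 or 3 the lc/fas count was 11 or 10, and the fas count was 12 without lc replicate 1 or 3 and 13 without lc/fas replicate 1 or 3.

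**Figure D2:**
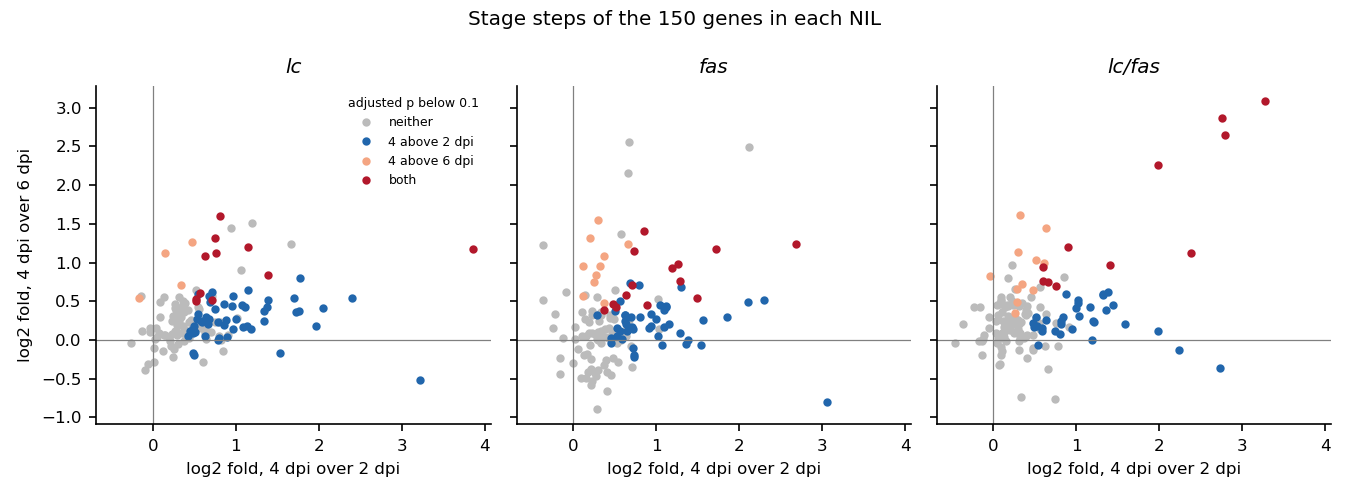
The 150 genes by their log2 fold change of 4 dpi over 2 dpi (horizontal) and of 4 dpi over 6 dpi (vertical) in lc, fas and lc/fas, coloured by whether edgeR's adjusted p was below 0.1. Most points lie right of 0 in every NIL, 11 genes in lc, 14 in fas and 11 in the lc/fas line passed both steps, and the 4 points at the upper right of lc/fas are the first 4 genes by rank.

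A maximum at 4 dpi that passed against both neighbouring stages was found in all 3 NILs for 3 genes, Solyc10g078990, Solyc07g038160 and Solyc11g045520. It was found in 2 NILs for 5 genes, Solyc05g007690, Solyc01g090530, Solyc11g072790, Solyc04g074740 and Solyc01g096080, in 1 NIL for 17 genes and in 0 for 125, against 0.0267%, 0.0321% and 0.203% of all genes tested in all 3, in 2 and in 1 NIL. By line, 11 genes passed both steps in lc, 14 in fas and 11 in the lc/fas line, against 0.0855%, 0.155% and 0.107% of all genes. The last 2 of these 5 were named after their values had been seen. The 20 genes ranked first held 8, 8 and 13 of the calls over 6 dpi in lc, fas and lc/fas, and the 130 genes ranked below them held 7, 16 and 9. The 13 in lc/fas include the first 4 genes by rank, which were uneven between libraries (below). Over 2 dpi the first 20 held 8, 6 and 10 of the calls, and the 130 below them held 54, 53 and 33.

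Solyc10g078990 had the largest log2 fold change of the 150 genes between 2 and 4 dpi in lc. Its homolog ZFP8 is a C2H2 zinc finger factor that acts in trichome initiation in Arabidopsis. At 4 dpi it stood at 44.6, 50.9 and 39.9 RPM in lc, 40.1, 41.2 and 41.4 RPM in fas, 41.0, 43.8 and 42.0 RPM in lc/fas, and 38.6, 39.6 and 37.0 RPM in the wild type. At 2 dpi the values were 2.38, 2.57 and 4.68 RPM in lc, 7.35, 2.77 and 9.2 RPM in fas, 8.49, 8.72 and 6.84 RPM in lc/fas, and 2.03, 1.58 and 3.35 RPM in the wild type. The 4 lines thus met within a narrow band at 4 dpi, and no library of 2 dpi came near it. At 6 dpi the gene was at 20.2, 20.1 and 20 RPM in lc, 10.2, 21.3 and 29.5 RPM in fas, 16.2, 19.5 and 20.7 RPM in lc/fas, and 18.5, 23.1 and 22.2 RPM in the wild type. In the SYM and F&IM it was below 2 RPM in every library. The log2 fold change of 4 over 2 dpi was 3.85 ± 0.29 (SE) in lc, 2.68 ± 0.26 in fas and 2.38 ± 0.25 in the lc/fas line, with edgeR adjusted p of 1.8e-13, 5.5e-10 and 3.7e-09. Over 6 dpi it was 1.17 ± 0.23, 1.24 ± 0.26 and 1.12 ± 0.23, with adjusted p of 0.0020, 0.0028 and 0.0019 by edgeR. The fas call over 6 dpi was lost without fas replicate 1 (edgeR adjusted p 0.233, the highest of 0.00091 to 0.233 over the alternatives), and the other 5 calls held under every alternative run.

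Solyc07g038160, for which no homolog is given, was expressed in every stage and crested at 4 dpi. It was at 128, 157 and 129 RPM in lc, 134, 174 and 137 RPM in fas, 116, 166 and 127 RPM in lc/fas, and 128, 180 and 145 RPM in the wild type. The 12 libraries of 2 dpi lay between 73.7 and 103 RPM and the 12 of 6 dpi between 67.1 and 122 RPM, so that of the 4 dpi libraries only the lowest lay below the highest of these. The log2 fold change of 4 over 2 dpi was 0.72 ± 0.14 in lc, 0.89 ± 0.15 in fas and 0.75 ± 0.15 in the lc/fas line (edgeR adjusted p 0.00049, 2.1e-05 and 0.00031), and these calls held under every alternative run. Over 6 dpi it was 0.51 ± 0.15, 0.45 ± 0.15 and 0.70 ± 0.14 (edgeR adjusted p 0.053, 0.085 and 0.0023). The lc call was lost without lc replicate 1, 2 or 3 (edgeR adjusted p 0.337, 0.368 and 0.351, range 0.015 to 0.368), and the fas call in 13 of its 17 alternatives, with an adjusted p of up to 0.414 without fas replicate 1 (edgeR, range 0.033 to 0.414). The lc/fas call was lost only with the 4 and 6 dpi libraries of that line fitted alone (edgeR adjusted p 0.259, range 0.00028 to 0.259).

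Solyc11g045520 is the homolog of S8H, the scopoletin 8-hydroxylase that makes the coumarin fraxetin in Arabidopsis. At 4 dpi it was at 30.7, 27.7 and 33.4 RPM in lc, 27.4, 23.9 and 28.1 RPM in fas, 34.4, 24.7 and 40.2 RPM in lc/fas, and 39.1, 30.1 and 40.7 RPM in the wild type. At 2 dpi all 12 libraries lay between 7.71 and 16.7 RPM, and at 6 dpi the 9 NIL libraries lay between 13.6 and 19.6 RPM, so the NIL libraries of 4 dpi did not overlap with either stage. The 3 wild-type libraries of 6 dpi held 27.2, 20.6 and 20.5 RPM. Between 2 and 4 dpi the log2 fold change was 1.38 ± 0.23 in lc, 1.29 ± 0.23 in fas and 1.40 ± 0.22 in the lc/fas line (edgeR adjusted p 2.0e-05, 9.6e-05 and 1.5e-05). Over 6 dpi it was 0.84 ± 0.22, 0.77 ± 0.24 and 0.97 ± 0.21 (edgeR adjusted p 0.032, 0.061 and 0.0047). The calls over 2 dpi held under every alternative, whereas each call over 6 dpi was lost without at least 1 replicate of its own line, with edgeR adjusted p of up to 0.505 without lc replicate 3 (range 0.0028 to 0.505), 0.372 without fas replicate 1 (0.027 to 0.372) and 0.104 without lc/fas replicate 1 (0.00032 to 0.104).

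The homologs of the MIXTA-type factors MYB16 and MYB106, which shape epidermal cells and promote cuticle in Arabidopsis, are 2 places apart in the table of genes, and both are among the first 12 by rank. Solyc05g007690, the MYB16 homolog, was at 10.1, 11.1 and 13.9 RPM at 4 dpi in lc, 11.2, 13.3 and 12.1 RPM in fas, 7.79, 7.85 and 13.2 RPM in lc/fas, and 13.3, 13.5 and 14.2 RPM in the wild type. Solyc05g007710, the MYB106 homolog, was at 31.7, 42.1 and 37.2 RPM in lc, 25.7, 33.9 and 28.3 RPM in fas, 28.1, 32.5 and 35.3 RPM in lc/fas, and 32.0, 39.0 and 39.2 RPM in the wild type. Both were at or below 2.45 RPM in every F&IM library, and in 6 dpi buds they had fallen back to between 0 and 7.85 RPM and between 15.4 and 27.5 RPM. The MYB16 homolog was higher at 4 than at 6 dpi in lc, fas and lc/fas, by log2 1.13 ± 0.31, 1.41 ± 0.33 and 1.04 ± 0.31 (edgeR adjusted p 0.042, 0.010 and 0.050), and higher than at 2 dpi in lc and fas, by 0.76 ± 0.29 and 0.85 ± 0.29 (edgeR adjusted p 0.091 and 0.054). The MYB106 homolog was higher at 4 than at 2 dpi in lc and lc/fas, by log2 0.71 ± 0.20 and 0.60 ± 0.20 (edgeR adjusted p 0.015 and 0.057), and higher than at 6 dpi in lc/fas, by 0.77 ± 0.20 (edgeR adjusted p 0.025). Its other 3 steps, of log2 0.46 to 0.62, did not pass. The pair may share reads. All 8 calls were lost without at least 1 replicate of the line concerned: lc replicates 1, 2 and 3, fas replicate 2 and lc/fas replicates 1 and 3 for the MYB16 homolog, and lc replicate 2 and lc/fas replicates 1, 2 and 3 for the MYB106 homolog, with a highest adjusted p by edgeR of 0.225 to 0.497.

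**Figure D3:**
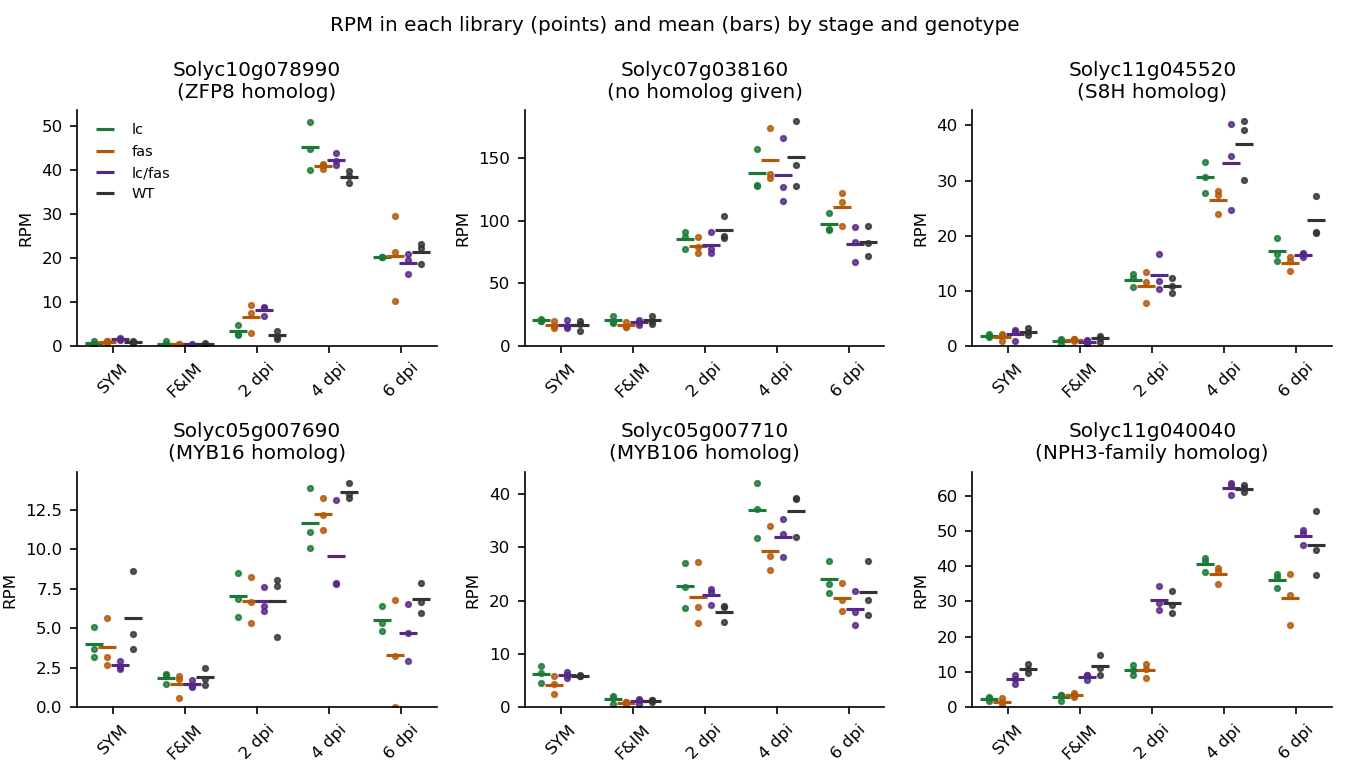
RPM of 6 genes in each library (points) with the mean of 3 (bars), by stage, for lc, fas, lc/fas and WT. The ZFP8 homolog meets at 37.0 to 50.9 RPM in all 12 libraries of 4 dpi, and the NPH3-family homolog separates lc and fas from lc/fas and WT at 2 and 4 dpi.

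Among the 11 transcription factors and repressors, 7 were higher at 4 than at 2 dpi in lc, 6 in fas and 3 in the lc/fas line, and 2, 4 and 3 were higher than at 6 dpi. For this and the groups below, the shares called among the 150 genes were 41.3, 39.3 and 28.7% over 2 dpi and 10, 16 and 14.7% over 6 dpi, and those among all genes are given above with the counts. Solyc10g083210, the homolog of DPA4, a B3 repressor of leaf margin outgrowth in Arabidopsis, was at 9.50, 13.7 and 8.15 RPM at 4 dpi in lc, 10.9, 15.3 and 10.4 RPM in fas, 9.02, 13.5 and 9.03 RPM in lc/fas, and 11, 10.6 and 11.2 RPM in the wild type. At 2 dpi no library exceeded 5.83 RPM. Its log2 fold change over 2 dpi was 1.76 ± 0.39 in lc, 1.38 ± 0.36 in fas and 0.99 ± 0.36 in the lc/fas line (edgeR adjusted p 0.0014, 0.0088 and 0.078), and only the lc/fas call was lost in an alternative, with an adjusted p of 0.355 without lc/fas replicate 2, 0.254 without lc/fas replicate 1 and 0.118 without lc replicate 2 (edgeR, range 0.010 to 0.355). At 6 dpi it was not lower by the test in any NIL, and 1 wild-type library of 6 dpi held 14.6 RPM.

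The homologs of ICE1, a bHLH factor of cold response and the stomatal lineage in Arabidopsis, and of OFP1, an OVATE-family repressor, were named after their values had been seen. Solyc03g118310 (ICE1) was higher at 4 than at 2 dpi by log2 0.96 ± 0.19 in lc and 0.81 ± 0.19 in fas (edgeR adjusted p 0.00047 and 0.0036), and the value in lc/fas was 0.30 ± 0.19 (edgeR adjusted p 0.397). Solyc06g073040 (OFP1) was higher by 1.01 ± 0.27 in lc and 1.12 ± 0.28 in fas (edgeR adjusted p 0.0087 and 0.0056), with 0.64 ± 0.27 in lc/fas (edgeR adjusted p 0.140). The OFP1 calls were lost without lc replicate 2 (edgeR adjusted p 0.155, range 0.0024 to 0.155) and without fas replicate 3 (0.139, range 0.0021 to 0.139). A call in 2 lines and none in the third does not show that the lines differ, and the stage step itself differed between 2 NILs for 0 of the 150 genes and 0 of all genes, in each of the 6 such contrasts of edgeR, with 1 to 6 of the 150 at an unadjusted p below 0.05. From 2 to 4 dpi those counts were 0.667% of the 150 for fas against lc, with 1.21% of all genes. They were 4% with 2.08% for lc/fas against lc, and 3.33% with 1.72% for lc/fas against fas. From 6 to 4 dpi they were 1.33, 1.33 and 2.67% of the 150, with 3.11, 1.35 and 4.25% of all genes. For the ICE1 homolog the 2 to 4 dpi step differed between lc/fas and lc by log2 -0.67 ± 0.27 (edgeR unadjusted p 0.019, adjusted p 0.9999).

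Solyc02g065290, the homolog of the Dof factor DOF5.8, was higher at 4 than at 6 dpi in fas by log2 0.96 ± 0.25 (edgeR adjusted p 0.020, and 0.291 without fas replicate 1, range 0.0017 to 0.291). Its values were 0.56 ± 0.23 in lc and 0.48 ± 0.22 in lc/fas, which did not pass. Solyc12g087830, the homolog of CAULIFLOWER, a MADS factor of floral meristem identity in Arabidopsis, passed neither step in any NIL. At 4 dpi it was at 35.4, 42.4 and 30.2 RPM in lc, 33.9, 49.8 and 33.8 RPM in fas, 28.5, 35.9 and 31.2 RPM in lc/fas, and 38.0, 55.8 and 41.9 RPM in the wild type.

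A single gene of the small secreted protein group gave the largest share of the counts. Solyc07g006380, whose homolog is a low-molecular-weight cysteine-rich protein, was the most abundant gene of all in wild-type buds of 4 dpi by 3′ tags. In the order SYM, F&IM, 2, 4 and 6 dpi, it took 2.33, 2.82, 3.53, 6.39 and 5.41% of all counts in lc, 2.25, 2.73, 3.41, 5.63 and 6.01% in fas, 2.27, 3.00, 3.62, 6.29 and 5.75% in lc/fas, and 2.79, 2.9, 3.93, 6.74 and 5.42% in the wild type. Its mean share was higher at 4 than at 2 dpi in every line, and in fas the 6 dpi libraries were uneven, with 85978 RPM in replicate 1, and 44394 and 49956 RPM in the other two. The log2 fold change of 4 over 2 dpi was 0.89 ± 0.18 in lc, 0.73 ± 0.18 in fas and 0.80 ± 0.18 in the lc/fas line (edgeR adjusted p 0.00063, 0.0057 and 0.0023), and only the fas call was lost in an alternative, without fas replicate 3 (edgeR adjusted p 0.107, range 0.00052 to 0.107). The step over 6 dpi did not pass, at 0.26 ± 0.18, -0.10 ± 0.18 and 0.08 ± 0.18.

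A second homolog of the same Arabidopsis protein, Solyc11g028040, stands beside Solyc11g028060 and Solyc11g028070, which are also among the 150 genes and have no homolog given. Neighbouring genes of this kind may be near-identical copies, and their counts are uncertain where reads could fall to either. At 4 dpi Solyc11g028040 was at 376, 659 and 636 RPM in lc, 413, 684 and 581 RPM in fas, 441, 499 and 525 RPM in lc/fas, and 546, 520 and 550 RPM in the wild type. Solyc11g028070, named after its values had been seen, was at 51.7, 44.7 and 60.9 RPM in lc, 47.6, 44.2 and 49.4 RPM in fas, 43.8, 51.2 and 51.1 RPM in lc/fas, and 49.7, 52.7 and 50.8 RPM in the wild type. It was higher than at 2 dpi by log2 0.95 ± 0.19, 1.13 ± 0.19 and 0.95 ± 0.19 in lc, fas and lc/fas (edgeR adjusted p 0.00033, 4.7e-05 and 0.00045), under every alternative run. Solyc11g028040 passed in lc and fas only at the edge of the threshold, by 1.08 ± 0.41 in each (edgeR adjusted p 0.096 and 0.099), and both calls were lost with the replicate as a block (adjusted p by edgeR 0.108 and 0.109) and without any of several replicates, with an adjusted p of up to 0.374 without lc replicate 2 and 0.313 without fas replicate 3 (edgeR, ranges 0.0083 to 0.374 and 0.00070 to 0.313).

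Protease inhibitor homologs were among the genes with the largest rises between 2 and 4 dpi. Solyc03g098710, the homolog of a Kunitz-type inhibitor, was at 407, 305 and 699 RPM at 4 dpi in lc, 222, 184 and 444 RPM in fas, 347, 312 and 626 RPM in lc/fas, and 422, 359 and 689 RPM in the wild type. At 2 dpi it was at 59.3, 65.3 and 149.8 RPM in lc, 42.7, 41.1 and 89.9 RPM in fas, 75.5, 105 and 146 RPM in lc/fas, and 68.2, 102 and 91.9 RPM in the wild type. No 2 dpi library reached a 4 dpi library, and replicate 3 was the highest at 4 dpi in each of the 4 lines. The log2 fold change of 4 over 2 dpi was 2.4 ± 0.53 in lc, 2.30 ± 0.54 in fas and 1.99 ± 0.52 in the lc/fas line (edgeR adjusted p 0.0023, 0.0040 and 0.012), and the lc/fas call alone was lost, without lc/fas replicate 1 (edgeR adjusted p 0.1003, range 5.0e-06 to 0.1003). Over 6 dpi it was 0.55 ± 0.50, 0.51 ± 0.52 and 0.12 ± 0.50, which did not pass.

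Solyc09g089490, the homolog of a PR-6 type proteinase inhibitor, and its neighbour Solyc09g089500, for which no homolog is given, varied strongly between replicates. Solyc09g089490 was at 27.2, 58.0 and 82.9 RPM at 4 dpi in lc, 14.3, 49.3 and 49.7 RPM in fas, 25.5, 49.4 and 68.3 RPM in lc/fas, and 19.8, 44.0 and 49.9 RPM in the wild type, with replicate 1 the lowest in every line. At 6 dpi it was at 20.9, 92.2 and 127 RPM in lc, 27.1, 87.3 and 102 RPM in fas, 25.6, 100.8 and 56.2 RPM in lc/fas, and 14.5, 39.8 and 33.0 RPM in the wild type. Its highest stage mean was therefore 6 dpi in all 3 NILs, and the ratio of 4 dpi to the next stage, 0.704 in lc and 0.530 in fas, was the smallest of the 150 genes in those lines. It was higher at 4 than at 2 dpi by log2 3.22 ± 0.72 in lc, 3.06 ± 0.77 in fas and 2.73 ± 0.70 in the lc/fas line (edgeR adjusted p 0.0025, 0.0072 and 0.0094), and the lc/fas call was lost without lc/fas replicate 3 (edgeR adjusted p 0.122, range 6.1e-10 to 0.122). Solyc09g089500 was at 323, 384 and 873 RPM at 4 dpi in lc, 135, 209 and 475 RPM in fas, 253, 306 and 716 RPM in lc/fas, and 230, 313 and 593 RPM in the wild type. It was higher than at 2 dpi by log2 2.05 ± 0.72, 2.11 ± 0.73 and 2.23 ± 0.73 (edgeR adjusted p 0.065, 0.062 and 0.049), calls that were lost without any of the 3 replicates of the line, with an adjusted p by edgeR of up to 0.273 in lc, 0.253 in fas and 0.209 in the lc/fas line. The 2 genes may share reads.

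**Figure D4:**
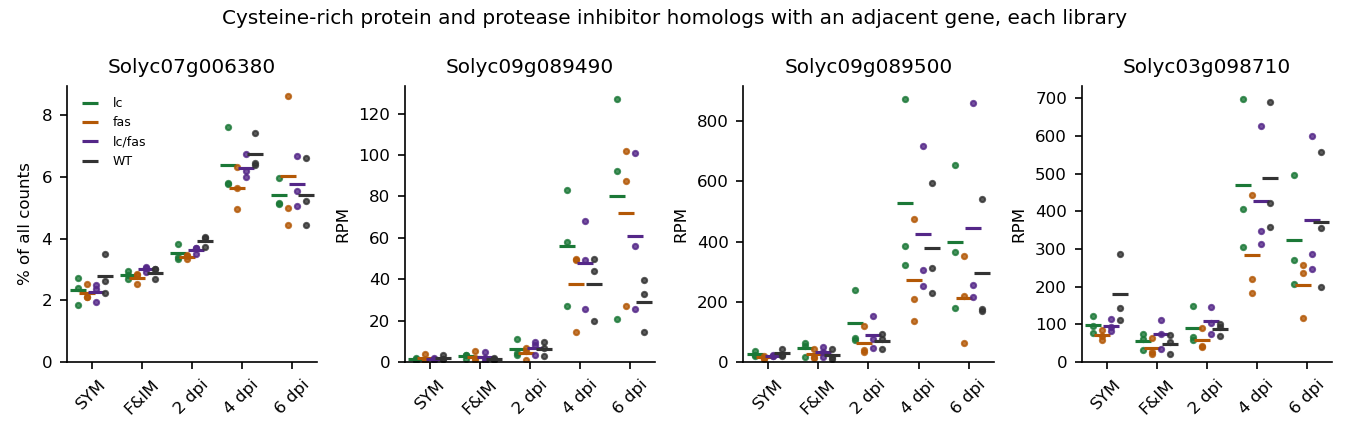
Share of all counts (first panel, %) or RPM (other panels) of Solyc07g006380, Solyc09g089490, Solyc09g089500 and Solyc03g098710 in each library (points) with the mean of 3 (bars), by stage, for lc, fas, lc/fas and WT. All 4 genes are higher at 4 than at 2 dpi in every line, and the points of a stage spread widely for the 3 genes on the RPM scale.

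Over these 5 inhibitors and small proteins, 4 were higher at 4 than at 2 dpi in lc, 4 in fas and 3 in the lc/fas line, and 0, 1 and 0 were higher than at 6 dpi. The exception was Solyc03g116060, the homolog of the gibberellin-regulated peptide GASA6, which was higher at 4 than at 6 dpi in fas by log2 0.84 ± 0.21 (edgeR adjusted p 0.014, and 0.233 without fas replicate 1, range 0.00024 to 0.233).

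Of the 13 enzyme homologs, 4 were higher at 4 than at 2 dpi in each NIL and 2 in each NIL were higher than at 6 dpi. Solyc08g080040, the homolog of LDOX, leucoanthocyanidin dioxygenase of anthocyanin and proanthocyanidin synthesis, was at 16.0, 27.3 and 18.2 RPM at 4 dpi in lc, 11.6, 12.8 and 12.7 RPM in fas, 9.43, 16.5 and 18.8 RPM in lc/fas, and 13.1, 12.9 and 18.3 RPM in the wild type. At 2 dpi no library exceeded 7.58 RPM, and in the wild type 6 dpi gave 4.62, 18.1 and 7.96 RPM, an uneven group. As a log2 fold change, 4 over 2 dpi was 1.70 ± 0.29 in lc, 1.36 ± 0.32 in fas and 1.38 ± 0.30 in the lc/fas line (edgeR adjusted p 5.3e-05, 0.0026 and 0.0014), under every alternative run. Solyc07g061730, the homolog of the gibberellin 2-oxidase GA2OX2, which inactivates gibberellins, was higher at 4 than at 6 dpi in fas and lc/fas, by 0.95 ± 0.30 and 0.99 ± 0.27 (edgeR adjusted p 0.071 and 0.036). These calls were lost without fas replicate 1 or 2 (edgeR adjusted p 0.507 and 0.241, range 0.0024 to 0.507), without lc/fas replicate 2 (0.105 for fas), and without lc/fas replicate 1 or 2 (edgeR adjusted p 0.406 and 0.228, range 0.0015 to 0.406). Solyc09g008670, the homolog of the threonine deaminase OMR1, and Solyc11g071290, of the alcohol dehydrogenase family, passed neither step in any NIL although they rank 14 and 16 in the wild type. At 4 dpi Solyc11g071290 was at 68.9, 92.7 and 87.2 RPM in lc, 52.7, 82.5 and 83.6 RPM in fas, 53.3, 90.5 and 94.4 RPM in lc/fas, and 56.3, 80.5 and 81.8 RPM in the wild type, with replicate 1 the lowest in each line.

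Of the 5 transporter homologs, 1, 2 and 2 were higher at 4 than at 2 dpi in lc, fas and lc/fas, and 2, 1 and 3 were higher than at 6 dpi. Solyc03g097940, the homolog of the outward potassium channel SKOR, was at 7.20, 17.0 and 14.7 RPM at 4 dpi in lc, 13.3, 10.5 and 13.0 RPM in fas, 15.4, 10.1 and 12.4 RPM in lc/fas, and 11.5, 10.4 and 9.72 RPM in the wild type. It was already present at 2 dpi, at 8.25 to 12.4 RPM in the 9 NIL libraries, and had dropped to 3.61 to 9.06 RPM by 6 dpi. It passed over 6 dpi in all 3 NILs, by log2 1.27 ± 0.31 in lc, 1.55 ± 0.35 in fas and 1.61 ± 0.30 in the lc/fas line (edgeR adjusted p 0.019, 0.0063 and 0.00068), and in none over 2 dpi. The lc call was lost without lc replicate 2 or 3 (edgeR adjusted p 0.458 and 0.184, range 0.0073 to 0.458) and the fas call without fas replicate 1 (0.195, range 0.0032 to 0.195). Solyc02g082170, the homolog of the purine permease PUP4, was likewise higher at 4 than at 6 dpi in lc and lc/fas, by 1.13 ± 0.28 and 0.83 ± 0.26 over 6 dpi (edgeR adjusted p 0.019 and 0.078). Both its calls were lost without replicate 1 or 2 of the line, with an adjusted p by edgeR of up to 0.372 in lc and 0.603 in lc/fas.

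Of the 6 signalling homologs, 2, 3 and 2 were higher at 4 than at 2 dpi in lc, fas and lc/fas, and 0, 0 and 1 were higher than at 6 dpi. Solyc03g031980, the homolog of a lectin receptor kinase, was at 14.4, 12.9 and 17.1 RPM at 4 dpi in lc, 14.1, 16.7 and 13.6 RPM in fas, 14.5, 14.6 and 16.0 RPM in lc/fas, and 14.3, 16.4 and 12.1 RPM in the wild type, and no library of 2 dpi exceeded 8.89 RPM. Over 2 dpi the log2 fold change was 1.39 ± 0.30 in lc, 1.02 ± 0.29 in fas and 1.44 ± 0.29 in the lc/fas line (edgeR adjusted p 0.00094, 0.015 and 0.00061), and only the fas call was lost, without fas replicate 3 (edgeR adjusted p 0.150, range 0.0027 to 0.150). Among the 90 genes with no homolog given, 39, 38 and 26 were higher than at 2 dpi in lc, fas and lc/fas and 8, 14 and 12 were higher than at 6 dpi. Of these Solyc01g080900, named after its values had been seen, rose to 77.6, 66.1 and 79.4 RPM at 4 dpi in lc, 83.5, 95.8 and 90.8 RPM in fas and 82.1, 62.1 and 75.3 RPM in lc/fas, with 70.8, 71.1 and 74.7 RPM in the wild type. No 2 dpi library exceeded 40.3 RPM, and its log2 fold change over 2 dpi was 1.37 ± 0.18, 1.49 ± 0.18 and 1.02 ± 0.18 (edgeR adjusted p 4.2e-07, 6.9e-08 and 6.7e-05), under every alternative run.

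The genes at the very top of the ranking were uneven between libraries. Solyc00g006470, Solyc11g027770, Solyc00g009760 and Solyc08g036520, ranked 1 to 4, have no homolog given. In 6 of 60 libraries all 4 were high, each more than 2 times its own median over all libraries. These were wild-type 4 dpi replicate 2, lc/fas 4 dpi replicates 2 and 3, lc 4 dpi replicate 3, fas 4 dpi replicate 3 and fas SYM replicate 3, so 5 of the 6 were of 4 dpi. Libraries in which only some of the 4 genes were that high are not listed. Across the 60 libraries, which share stage and line, Pearson's r with the first gene was 0.92, 0.91 and 0.83 for the other three, and 0.50 for the next of the 150 genes. Of all tested genes 5 had an r over 0.8 with it. The 60 libraries include the wild-type ones that chose and ranked these 4 genes. The shared high in wild-type 4 dpi replicate 2 is therefore partly set by the selection. Through that library, so are the share of 4 dpi among the 6 and the r values. A correlation over the NIL libraries alone was not calculated.

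Solyc00g006470 was at 9.21, 7.38 and 36.7 RPM at 4 dpi in lc, 3.92, 5.35 and 45.1 RPM in fas, 5.33, 111 and 64.0 RPM in lc/fas, and 11.7, 139 and 53.8 RPM in the wild type. Solyc08g036520 was at 10.5, 11.4 and 27.2 RPM in lc, 7.84, 11.2 and 33.5 RPM in fas, 13.1, 81.5 and 38.9 RPM in lc/fas, and 13.6, 96.8 and 20.9 RPM in the wild type. For Solyc00g006470 at least 1 library of 4 dpi in every line lay among the values of the other stages. All 4 genes passed both steps in lc/fas only, Solyc00g006470 by log2 3.28 ± 0.92 over 2 dpi and 3.08 ± 0.90 over 6 dpi (edgeR adjusted p 0.019 and 0.054). Without lc/fas replicate 2 its adjusted p by edgeR was 0.345 and 0.383, without lc/fas replicate 3 it was 0.145 and 0.306, and the ranges over the alternatives were 0.0039 to 0.345 and 0.016 to 0.383. For the other 3 genes the adjusted p without lc/fas replicate 2 was 0.369 to 0.508 over 2 dpi and 0.247 to 0.515 over 6 dpi by edgeR.

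Solyc08g074640, ranked 5, did not move with those 4 genes. It was at 4.46, 10.3 and 7.07 RPM at 4 dpi in lc, 14.8, 64.2 and 6.36 RPM in fas, 19.1, 7.10 and 6.19 RPM in lc/fas, and 3.18, 46.9 and 7.85 RPM in the wild type, and in lc/fas 1 library of 6 dpi held 60.5 RPM. Single libraries thus set its stage means, and it passed no test. Over the 150 genes, 1 wild-type library held more than 50% of the summed 4 dpi level for 7 genes, the highest of the 3 libraries was replicate 2 for 76 genes, replicate 3 for 49 and replicate 1 for 25, and the median coefficient of variation was 15.4%. Solyc01g010910, ranked 6, was more even, at 10.5, 18.5 and 11.4 RPM in lc, 9.37, 12.1 and 14.5 RPM in fas, 6.83, 12.7 and 11.9 RPM in lc/fas, and 10.1, 16.4 and 17.7 RPM in the wild type.

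**Figure D5:**
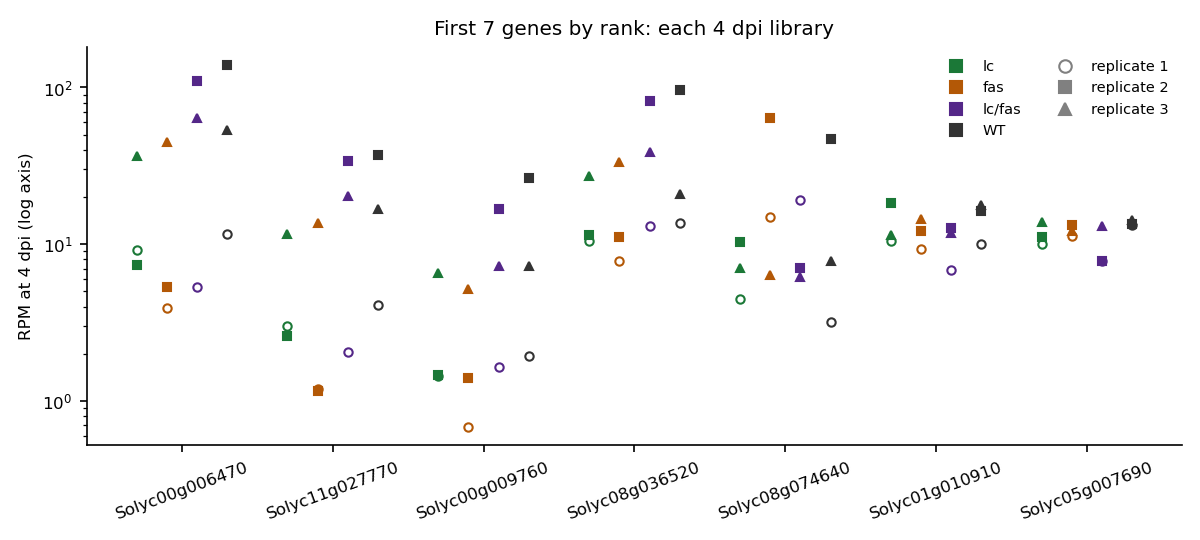
RPM at 4 dpi (log axis) of the 7 genes ranked first, in each library of lc, fas, lc/fas and WT, with the replicate given by the symbol. The first 4 genes are all high in replicate 2 of WT and of lc/fas. For Solyc00g006470 replicate 2 of WT is at 139 RPM and replicate 1 at 11.7 RPM, whereas the MYB16 homolog Solyc05g007690 spans 7.79 to 14.2 RPM over all 12 libraries.

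Between the NILs themselves, 0 of the 150 genes differed at 4 dpi by edgeR's test in each of fas against lc, lc/fas against lc and lc/fas against fas, where 0.0214%, 0.0214% and 0.00534% of all genes were called. At an unadjusted p below 0.05 the counts were 8, 4 and 8, or 5.33, 2.67 and 5.33% of the 150 genes, against 2.18, 2.43 and 2.08% of all genes. DESeq2 called 0, 0 and 1, and a fit blocked on the replicate number, by which libraries of 4 dpi were paired in fas against lc and in lc/fas against fas, gave 0 and 1. The 1 gene was Solyc11g040040 in lc/fas against fas, with a log2 difference of 0.74 ± 0.16 and an edgeR adjusted p of 0.244, 0.034 with the block, and 0.0047 with DESeq2.

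Solyc11g040040 is the homolog of an NPH3-family protein, a family of adaptors in phototropism and auxin-dependent organ formation in Arabidopsis. At 4 dpi it was at 60.1, 63.6 and 62.9 RPM in lc/fas, 42.3, 41.3 and 38.3 RPM in lc, 38.5, 39.5 and 35.0 RPM in fas, and 63.0, 62.0 and 60.9 RPM in the wild type. At 2 dpi the separation was wider, with 34.5, 27.5 and 29.4 RPM in lc/fas, 10.6, 9.0 and 12 RPM in lc, 10.8, 8.30 and 12.3 RPM in fas, and 28.9, 26.7 and 33.0 RPM in the wild type. The lc/fas libraries lay within the range of the wild type or beside it, and no lc or fas library of these stages reached them. In the SYM it averaged 7.84 ± 1.2 RPM in lc/fas, 2.33 ± 0.64 RPM in lc, 1.49 ± 1.03 RPM in fas and 10.9 ± 1.3 RPM in the wild type (SD, n = 3 each). Over the 5 stages it was higher in lc/fas than in lc by log2 1.01 ± 0.12 and than in fas by 1.18 ± 0.12 (edgeR adjusted p 1.7e-07 and 6.0e-09). With counts summed over the stages of each genotype and replicate number, an alternative chosen after seeing the data, the difference from fas was 1.04 with an adjusted p of 0.257 by edgeR, and that from lc was no longer called, and both held under the other alternatives run. It was higher at 4 than at 2 dpi in lc, fas and lc/fas by log2 1.97 ± 0.18, 1.85 ± 0.18 and 1.03 ± 0.16 (edgeR adjusted p 5.8e-11, 4.3e-10 and 9.8e-06), under every alternative run. The lc/fas step was smaller than the lc step by 0.94 (unadjusted p 0.00032, edgeR adjusted p 0.99993 over all genes). The study lists Solyc11g040040 among its genes with a genotype by stage interaction. Its DESeq2 model also held the wild type and its threshold was on the unadjusted p, so the 2 results are not like for like.

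Over the 5 stages together, 6 of the 150 genes differed between fas and lc, 4 between lc/fas and lc and 2 between lc/fas and fas, against 1.69%, 0.914% and 0.107% of all genes tested by edgeR. Libraries of 1 genotype and number are here treated as separate samples. With their counts summed, an alternative chosen after seeing the data, the count was 0 in each contrast by edgeR, and without fas replicate 3 it was 20 in fas against lc and 4 in lc/fas against fas. Without fas replicate 1 it was 2 and 1, without lc replicate 3 it was 3 in fas against lc, and without lc/fas replicate 3 it was 7 in lc/fas against lc. In lc/fas against fas it was 1 without lc replicate 2 and 1 without lc/fas replicate 1 or 3.

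Solyc06g053830, the homolog of the auxin response repressor IAA7, was higher in both lines that carry fas than in lc. At 2 dpi it was at 124, 118 and 109.9 RPM in fas and 120, 133 and 122 RPM in lc/fas, against 85.4, 85.7 and 86.1 RPM in lc, with 86.7, 99.8 and 85.9 RPM in the wild type. At 4 dpi it was at 142, 167 and 149 RPM in fas and 121, 145 and 141 RPM in lc/fas, against 112, 119 and 129 RPM in lc, with 122, 136 and 128 RPM in the wild type. The groups did not overlap at 2 dpi, and at 4 dpi lc/fas overlapped with lc. The test over the stages includes these same libraries. Over the stages the log2 difference from lc was 0.29 ± 0.06 in fas and 0.30 ± 0.06 in lc/fas (edgeR adjusted p 0.0037 and 0.0029). The calls were lost with the bud stages alone (edgeR adjusted p 0.341 and 0.643) and with summed counts (1), of ranges 0.00029 to 1 and 0.00037 to 1.

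Solyc11g071740, the homolog of the calmodulin-like protein CML38, was likewise higher in fas and lc/fas than in lc, by log2 0.91 ± 0.19 and 0.99 ± 0.19 (edgeR adjusted p 0.0068 and 0.0030). The study's table of introgressed genes covers only 18 of the 150 genes, and Solyc11g071740 is the 1 of them that it places in an introgressed segment. The segment and the fas allele cannot be told apart here, and whether fas and lc/fas stood high or lc stood low was not tested. At 4 dpi the gene was at 24.9, 26.7 and 15.6 RPM in fas and 26.2, 26.5 and 17.5 RPM in lc/fas, against 11.7, 9.97 and 17.9 RPM in lc, with 17.3, 19.3 and 24.7 RPM in the wild type. At 6 dpi fas ranged from 2.27 to 68.2 RPM, with the low value in the library of smallest total. The calls were lost without fas replicate 1 (edgeR adjusted p 0.172, range 0.00014 to 1) and without lc/fas replicate 1 (0.164, range 6.6e-05 to 1).

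The other differences over the stages were smaller or less stable. Solyc00g026160, the homolog of the ferric reductase FRO4, was lower in fas than in lc by a log2 value of -0.87 ± 0.20 (edgeR adjusted p 0.013), with 6.82, 11.9 and 13.3 RPM at 4 dpi in fas, against 15, 18.1 and 24.7 RPM in lc. The OMR1 homolog Solyc09g008670 was lower by -0.61 ± 0.18 (edgeR adjusted p 0.099), with 24.9, 36.0 and 55.8 RPM in fas, against 62.3, 77.1 and 85.1 RPM in lc. These groups did not overlap at 4 dpi, but the test over the stages includes those libraries, and the share of all genes so separated was not calculated. At 4 dpi alone neither gene was called (edgeR unadjusted p 0.025 and 0.016, adjusted p 0.99998 for both). Solyc05g005810 and Solyc11g066520 were lower in fas by -0.21 ± 0.06 and -0.27 ± 0.07 (edgeR adjusted p 0.075 and 0.060). The GA2OX2 homolog Solyc07g061730 was higher in lc/fas than in lc by 0.52 ± 0.13 (edgeR adjusted p 0.040), and the CAULIFLOWER homolog Solyc12g087830 was lower in lc/fas than in fas by -0.38 ± 0.09 (edgeR adjusted p 0.070). Each of these 6 calls was lost without 2 or more of the 9 sets of 5 libraries that share a NIL and a replicate number, and with counts summed the adjusted p by edgeR was 1 or close to it. For the first 4 genes these included fas replicate 1 (edgeR adjusted p 0.209, 0.389, 0.153 and 0.194) and lc replicate 3 (0.146, 0.321, 0.159 and 0.148), and for the last 2 genes lc/fas replicate 1 (0.796 and 0.162).

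Against the wild type, the level at 4 dpi is set by the selection and is given as a description. The median log2 ratio of the means at 4 dpi was -0.04 in lc, -0.07 in fas and -0.08 in the lc/fas line, and 87, 90 and 106 of the 150 genes lay below the wild type. The 3 genes furthest below it in lc and fas were among the uneven first 4 by rank.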

How the data were processed

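The authors trimmed the 3′ Tag reads with fqtrim, aligned them with Rsubread, and deposited raw counts per ITAG2.4 gene model. The sources used here do not give the counting settings, and the submitters' processing notes also name DESeq2. Every one of the 60 count columns matched 1 sample, and the row that names no gene (at most 3.01% of a library) was left out. The 150 genes, the gene lists and the tests were chosen with earlier results of these data known.

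Tests used edgeR 4.0.16 in R 4.3.3 (TMM scaling, glmQLFit and glmQLFTest, 1 coefficient for each of the 15 NIL groups, Benjamini-Hochberg adjustment over 18712 genes, threshold 0.1). The SE is the absolute log2 fold change divided by the square root of F. The scripts were tested on simulated data. Replicates were described as biological, and p-values measure the spread between these pooled collections. Genes were named by rank, by group, by a call between NILs and by the largest and smallest values, and the few others are marked as chosen after their values were seen.

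Alternatives were other scalings, filters and thresholds, DESeq2 1.42.0, each replicate left out in turn, fewer libraries in the fit, and the replicate number as a block. Equal numbers deviated together, with every correlation over 0.1, for fas in both stage steps (lowest 0.163 and 0.121), for lc/fas in 4 against 6 dpi (0.182), and at 4 dpi for fas against lc (0.193) and lc/fas against fas (0.223). This was not so for the other stage steps and for lc/fas against lc at 4 dpi, and in the contrasts over the stages it held at some stages and not at others.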

Additional observations from a re-analysis of the deposited data

How the results depend on the processing

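Over the alternatives run, 0 of the 142 named gene tests reversed, 39 stayed past the threshold under every alternative and 97 lost the call in at least 1 setting that left out a replicate. The cause was not tested for any change below. With a change of at least 2-fold also required, the counts over 2 dpi were 23 in lc, 24 in fas and 22 in the lc/fas line, and over 6 dpi 8, 8 and 10. Leaving out each replicate gave 27 to 68, 32 to 62 and 29 to 47 genes over 2 dpi, and 3 to 16, 2 to 21 and 10 to 26 over 6 dpi. In fas over 6 dpi the count was 13 with DESeq2 size factors, 12 with no filter, 13 with a stricter filter, 10 with both stages fitted alone and 10 at an adjusted p below 0.05. In lc/fas over 6 dpi it was 3 fitted alone and 14 at 0.05.

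With the replicate number as a block, the counts over 6 dpi were 24 in lc and 35 in lc/fas. The same-number correlations were all over 0.1 in lc/fas, whereas the lowest in lc, 0.09993, fell just below it. Between NILs the block gave 1 gene at 4 dpi in lc/fas against fas (1 also with DESeq2), and over the stages 16, 9 and 4 in fas against lc, lc/fas against lc and lc/fas against fas, where 11, 9 and 12 of 15 same-number correlations were over 0.1. The block moved none of the other counts of the stage steps and of the 4 dpi contrasts by over 1.5 times.

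Over the stages, fas against lc gave 0 genes with the buds alone, 0 with summed counts, 10 with DESeq2, 3 at 0.05, 0 at 2-fold and 2 to 20 without 1 replicate. For lc/fas against lc these were 1 with the buds alone, 0 summed, 1 at 2-fold and 3 to 7, and for lc/fas against fas 1, 0, 1 and 1 to 4, with 1 at 0.05. The summed counts were added after seeing the data.

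Of the 150 genes, 99 would be chosen with a floor of 5 RPM, 97 with 20 RPM, 84 by medians, and 83 to 95 without 1 wild-type replicate. Depth limited low genes most in the fas library of 6 dpi, replicate 3.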
